A study of Homo sapiens with 13 samples.

Results

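The 10 genes described here encode regulators with roles in trophectoderm, amnion or mesoderm. The set holds the transcription factors CDX2, GATA3, GATA2, TFAP2A, TFAP2C, HAND1, MSX2, ISL1 and TBX3, and the secreted ligand BMP4. Some of the genes can also be expressed in pluripotent cells. They were chosen by name, with earlier results of these data known. Each was represented by 1 transcription start site (TSS) in hg19 and by the peaks that reached within 10 kb of it. In hg19 the TSS lie at position 28543505 of chromosome 13 (CDX2), 8096667 of chromosome 10 (GATA3), 128212030 of chromosome 3 (GATA2), 10412607 of chromosome 6 (TFAP2A), 55204358 of chromosome 20 (TFAP2C), 115121969 of chromosome 12 (TBX3) and 54423554 of chromosome 14 (BMP4). On chromosome 5 lie those of HAND1 (153857824), MSX2 (174151575) and ISL1 (50678958). The peaks numbered 106 of the 136141 in 7 lists. The lists came from chromatin immunoprecipitation with sequencing (ChIP-seq) in H1, WA01, a long established line of human embryonic stem cells. The knockout (KO) cells, named 1-10, carried a homozygous Cas9 deletion of ZNF263, and the wild-type (WT) cells were H1 with the gene intact. ZNF263 is a zinc finger transcription factor. H3K4me3, H3K27ac and H3K27me3 were each mapped in 1 KO and 1 WT library. The 1-10 KO cells given an ectopic, FLAG-tagged ZNF263 were the source of 1 further list, from a FLAG antibody, whose peaks are called FLAG peaks. A single KO line stands for the genotype, and how strongly the tagged protein was expressed was not analysed here. Libraries made with an antibody to the endogenous protein in WT cells are labelled with the same FLAG list, and endogenous peaks were not analysed here. Because each arm is 1 library, genotypes are described side by side, without a test or a replicate check.

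H3K4me3 is laid down at promoters by trithorax-group enzymes, and H3K27me3 by Polycomb repressive complex 2. In embryonic stem cells the promoters of developmental regulators often carry both marks over the same region, a state called bivalent, while transcription stays low and the gene can be turned on or silenced as cells differentiate. H3K27ac marks active promoters and enhancers and cannot occupy the same lysine as H3K27me3. BMP4 signalling drives human pluripotent cells toward amnion-like, trophoblast-like and mesodermal fates, and many of the other genes named here are among those that turn on after BMP treatment. GATA2, GATA3, TFAP2A and TFAP2C are used together as markers of early trophoblast or amnion.

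The lists held 27126 KO and 28660 WT peaks for H3K4me3, 17571 KO and 17537 WT peaks for H3K27ac, 10375 KO and 11906 WT peaks for H3K27me3, and 22966 FLAG peaks. They give a position and a score per peak and no read counts, so the depth is unknown. The score is the authors' own value for a peak, on a scale the sources do not state, and many scores equal 3100. Scores ranked peaks within a list and were not compared across lists. A peak missing from a list may lie just under the caller's threshold. Brackets hold Wilson 95% intervals, which reflect counting error over peaks and nothing else. Pluripotency markers were not checked, for want of an annotation in the build of the lists. Peaks within 10 kb can also belong to neighbours. The RefSeq gene table of GRCh38.p14 lists genes within 10 kb of the whole gene, not of the TSS, at 7 of the 10. Some of these neighbours may thus lie outside the windows used here. They include URAD and LINC00543 at CDX2, MIR5580 at BMP4, LINC00518 at TFAP2A, DNAJB8-AS1 at GATA2, and GATA3-AS1, GATA2-AS1, TFAP2A-AS1, TFAP2A-AS2, TBX3-AS1 and ISL1-DT at their namesakes. HAND1, TFAP2C and MSX2 had none listed. The peaks closest to the 10 kb limit were H3K4me3 peaks. At TBX3 the KO peak that began 8786 bases and the WT peak that began 8791 bases downstream of the TSS were counted. At MSX2 the KO peak that began 10026 bases and the WT peak that began 10114 bases downstream were not.

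All 10 genes were bivalent in KO cells and all 10 in WT cells. In both genotypes an H3K4me3 peak and an H3K27me3 peak lay over each of the 10 TSS. Of windows of the same size centred on every WT H3K4me3 peak, 34.8% held a KO and 39.1% a WT H3K27me3 peak. Each of the 29 KO and 34 WT H3K4me3 peaks in the windows overlapped H3K27me3 of the same genotype. Over the whole lists this held for 30.7% (30.2 to 31.3) of KO and 33.4% (32.9 to 34) of WT H3K4me3 peaks. H3K27me3 covered 55.1% to 100% of each member window in KO and 59.1% to 100% in WT. The overlap of H3K4me3 peaks in these windows was thus largely set by the windows. The 29 KO and 34 WT peaks also lay wholly inside an H3K27me3 peak, as 59.8% of all KO and 56.2% of all WT bivalent peaks did. Among H3K4me3 peaks on H3K27me3 peaks at least 10 kb wide the shares were 92.2% in KO and 92.9% in WT, so the members were like other wide H3K27me3 regions in this respect. With only the upper 50% of each list by score, 4 genes in KO and 7 in WT were bivalent.

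None of the 10 genes had an H3K27ac peak within 10 kb, or within 20 kb, in either genotype. Of all KO H3K4me3 peaks 41.4%, and of all WT H3K4me3 peaks 42.6%, overlapped H3K27ac of the same genotype. Of the windows centred on every WT H3K4me3 peak, 46.6% held a KO H3K27ac peak and 49.8% a WT one. Around bivalent WT peaks the shares were 17.1% for KO and 21.2% for WT H3K27ac. Of windows centred on WT H3K4me3 peaks inside wide H3K27me3 regions (at least 10 kb), 5.32% held KO H3K27ac and 8.08% WT H3K27ac, so its absence at the members is usual for such regions. No gene carried all 3 marks. The nearest H3K27ac peak lay closest at GATA3, 37.161 kb from the TSS in KO and 36.916 kb in WT. It lay at similar distances in KO and WT at CDX2 (52.708 and 52.485 kb), GATA2 (74.559 and 74.959 kb), TFAP2A (105.589 and 105.714 kb), HAND1 (109.145 and 108.402 kb), ISL1 (156.164 and 156.205 kb) and TFAP2C (235.658 and 235.680 kb). At each of these 7 genes the nearest KO and WT peaks overlapped each other. At the other genes they differed: 397.001 kb in KO against 45.069 kb in WT at TBX3, 214.048 kb in KO against 65.240 kb in WT at BMP4, and 758.350 kb in KO against 672.633 kb in WT at MSX2. The nearest MSX2 peaks lay on opposite sides of the gene, upstream in KO and downstream in WT. The WT peak near TBX3 had a score of 42.81, where the lowest score in that list was 40. The WT peaks near BMP4 and MSX2 had 67.23 and 78.21, and all 3 were below the WT list median of 119.75. The KO peaks had 40.9 at TBX3, 103.74 at BMP4 and 45.17 at MSX2, below the KO list median of 111.81. Peaks without a partner were frequent for this mark, at 24.8% of all KO H3K27ac peaks and 24.6% of all WT ones.

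**Figure D1:**
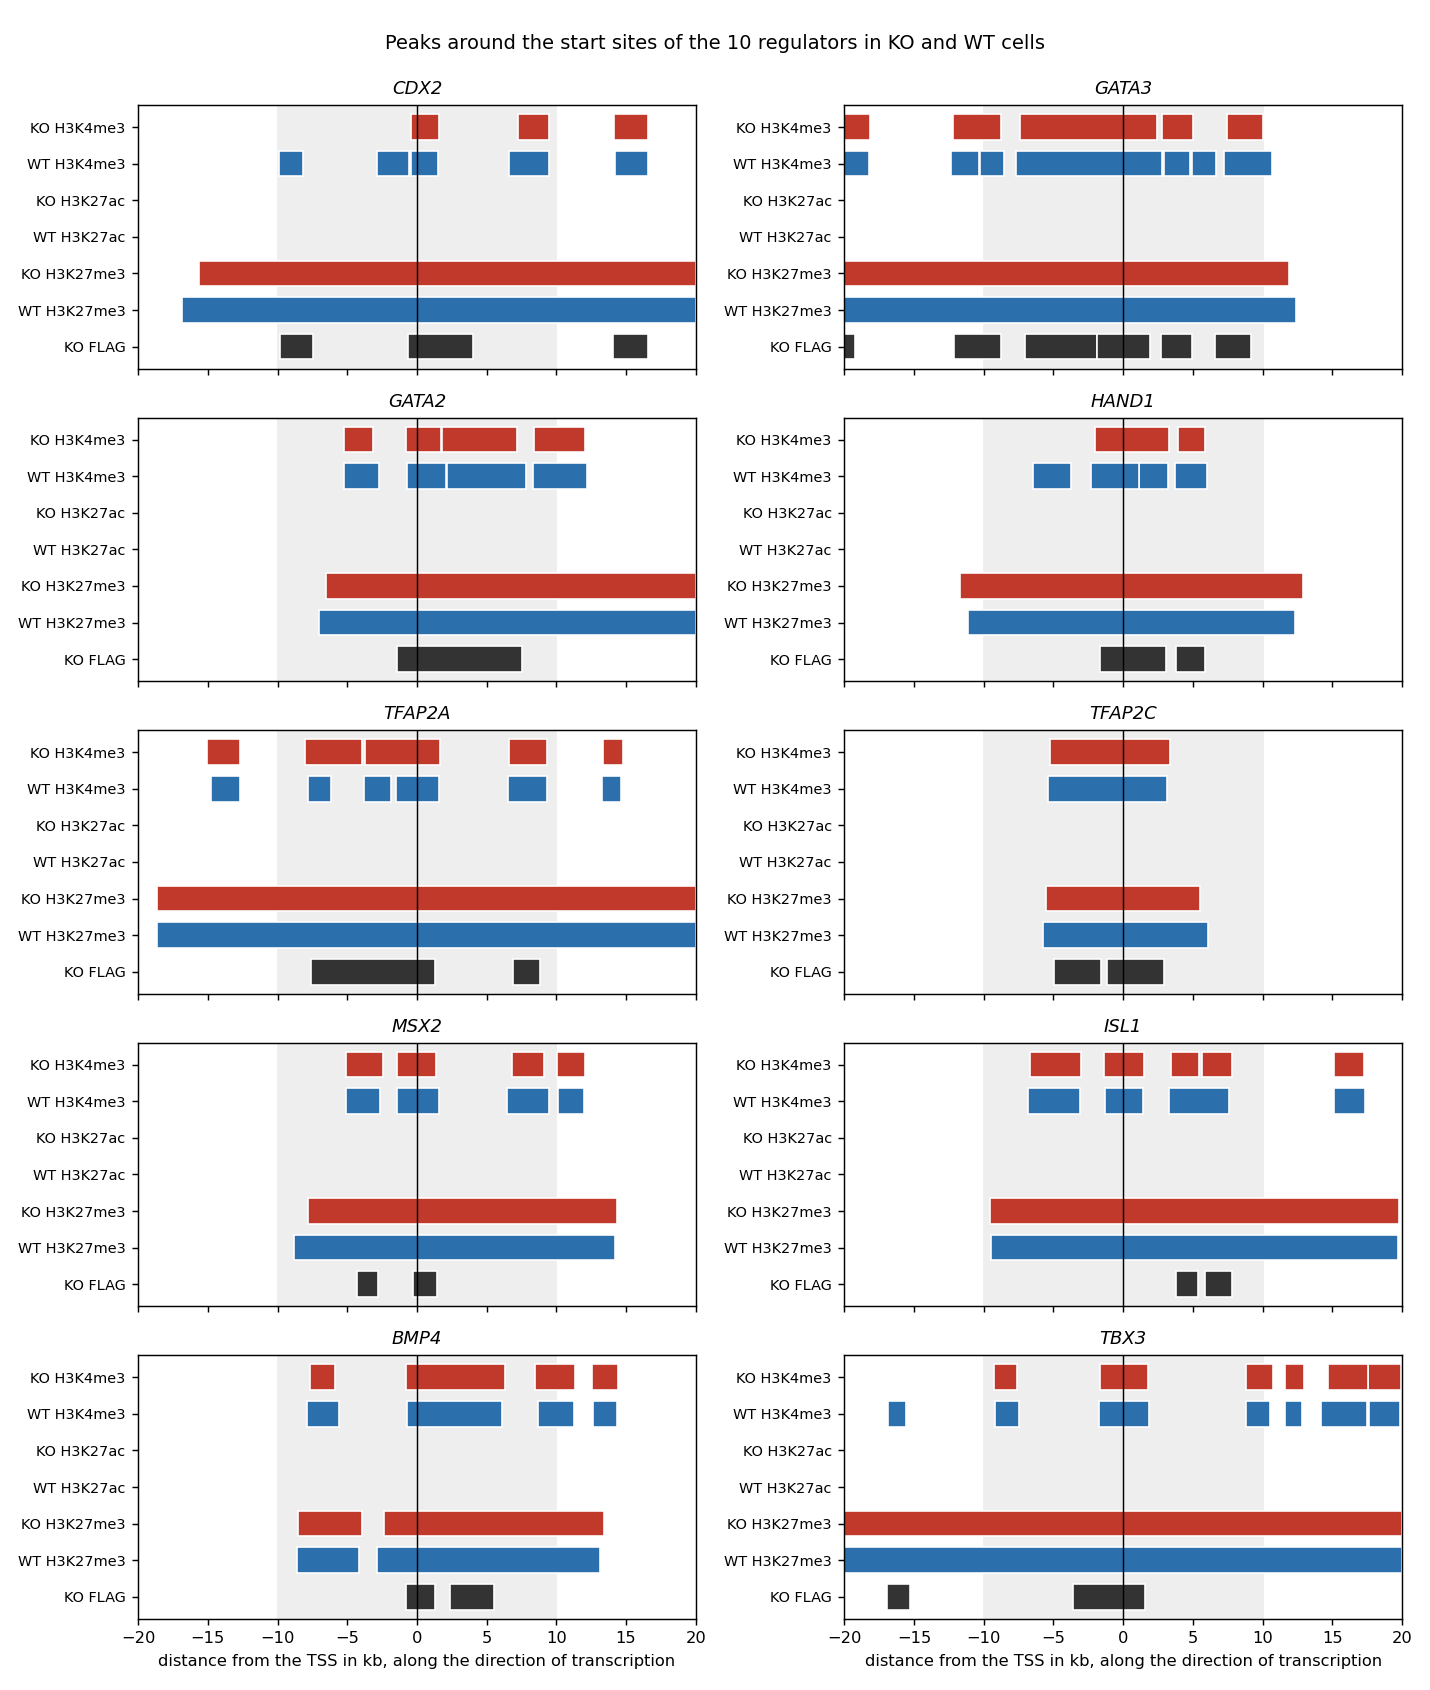
Peaks within 20 kb of the TSS of each gene, drawn along the direction of transcription (x axis, kb), with KO lists in red above WT lists in blue and FLAG peaks in dark grey. The pale band is the 10 kb window. H3K27me3 spans every TSS in both genotypes, the H3K27ac rows are empty, and H3K4me3 peaks in the pale band sit inside the H3K27me3 peaks. At BMP4 an H3K4me3 peak outside the band crosses the downstream edge of H3K27me3 in KO and in WT.

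H3K27me3 formed 1 broad peak over the TSS of each gene, and its extent was nearly the same in KO and WT cells. TFAP2A, an AP-2 factor of early trophoblast and neural crest, had the widest at 52079 bp in KO and 51897 bp in WT. By width it ranked 21 of the 10375 KO and 15 of the 11906 WT H3K27me3 peaks. TBX3, a T-box repressor expressed in mesoderm and limb, followed with 42868 bp in KO and 43090 bp in WT. CDX2, the homeobox factor that specifies trophectoderm in the mouse, had 35655 bp in KO and 37094 bp in WT. The GATA3 peak was 35866 bp wide in KO and 35560 bp in WT. GATA2 and ISL1 were close to each other: the GATA2 peak spanned 29363 bp in KO and 29663 bp in WT. The ISL1 peak spanned 29364 bp in KO and 29211 bp in WT. HAND1, a basic helix-loop-helix factor of extraembryonic mesoderm and heart, had 24540 bp in KO and 23423 bp in WT. MSX2, a homeobox gene induced by BMP signals, had 22177 bp in KO and 23059 bp in WT.

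The narrowest of the 10 was at TFAP2C, the AP-2 factor of trophoblast and germ cells, at 11028 bp in KO and 11822 bp in WT. BMP4 had 15737 bp in KO and 15949 bp in WT, and it was the only member with a further H3K27me3 peak in the window. That peak lay upstream, 3917 to 8516 bases from the TSS in KO and 4174 to 8614 in WT, with a gap between it and the main peak in both genotypes. Even the TFAP2C peak was wider than 93.6% of the KO list and 95.3% of the WT list. The width ratio, KO over WT, was between 0.93 (TFAP2C) and 1.05 (HAND1), with a median of 0.99. It was below 1 at 6 genes and above 1 at 4. Of the 586 H3K27me3 peaks that were paired singly between genotypes and at least 10 kb wide in WT, 42.8% were narrower in KO. The median ratio of those peaks was 1.01, with a 5th to 95th percentile range of 0.91 to 1.12, and all 10 members lay inside it. The edges of the members' peaks moved by a median of 277 bp between lists, against 285 bp for those wide pairs. The largest shift was at the upstream edge of CDX2, which reached 15646 bases upstream in KO and 16878 in WT, a difference of 1232 bp. The smallest was 13 bp, at the upstream edge of TFAP2A. Within 10 kb of the TSS, H3K27me3 covered 181919 bases in KO and 184462 in WT over the 10 genes, a ratio of 0.99. No KO or WT H3K27me3 peak at these genes was without a partner, where 11% of the KO list was KO-only and 21.6% of the WT list WT-only.

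**Figure D2:**
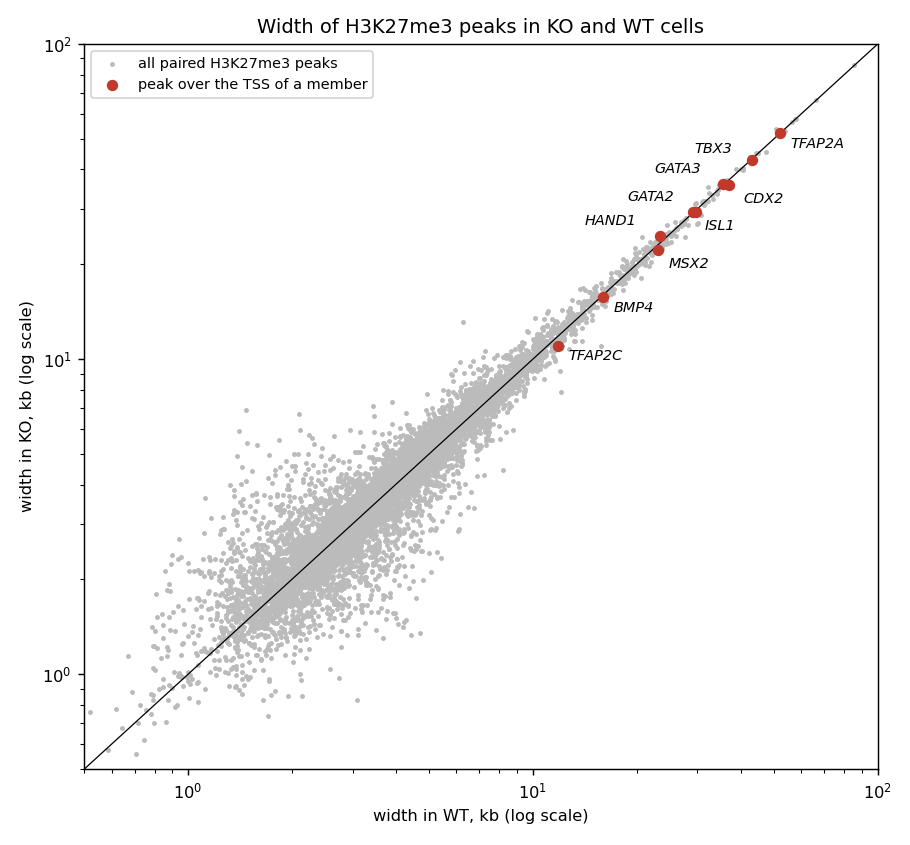
Width of each H3K27me3 peak in KO (y axis, kb, log scale) against WT (x axis, kb, log scale), for the 8086 peaks paired singly between genotypes (grey) and the peak over the TSS of each of the 10 genes (red). The line marks equal width. The red points lie on or beside the line, with KO to WT ratios of 0.93 to 1.05.

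H3K4me3 was less even, both among the genes and between genotypes. The 10 TSS peaks were wide, at the median 4350.5 bp in KO cells and 3265.5 bp in WT cells, beside 2559 bp over the whole KO list and 2499 bp over the whole WT list. Widths of bivalent peaks alone were not compared. The medians also depend on how stretches were divided into peaks. At HAND1 (5262 bp in KO, 3479 bp in WT) and TFAP2A (5430 bp in KO, 3052 bp in WT) the KO peak overlapped a further WT peak. GATA3, a zinc finger factor of trophoblast, had the widest, 9829 bp in KO and 10451 bp in WT, with a score of 3100 in both lists. TFAP2C had a single peak in the window, 8611 bp in KO and 8527 bp in WT, again at 3100 in both lists. The BMP4 peak over the TSS was 7094 bp in KO and 6794 bp in WT and also had 3100 in both. CDX2 had the narrowest in both genotypes, 2011 bp in KO and 1961 bp in WT. GATA2, a zinc finger factor of trophoblast and blood, had its broadest H3K4me3 peak just past the TSS and not over it. That peak lay 1811 to 7175 bases downstream in KO and 2178 to 7790 in WT, with scores of 1455.59 in KO and 2774.09 in WT. GATA2 has 2 RefSeq starts, which were not placed in hg19, so whether this peak covers another start was not tested. The peak over the GATA2 TSS had 113.77 in KO and 437.50 in WT, and 18.7% of the KO list and 36.4% of the WT list had a lower score.

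By score the TSS peaks stood on both sides of the middle of their lists, 3 above and 7 below the median in KO and 5 above and 5 below it in WT. At MSX2 49.1% of the KO list and 55.6% of the WT list had a lower score than the TSS peak. At ISL1 47.7% of the KO list and 53.9% of the WT list did. At TFAP2A 43.6% of the KO list and 46.8% of the WT list did, and at HAND1 41.5% of the KO list and 46.4% of the WT list did. TBX3 stood lower, with 37.4% of the KO list and 44.0% of the WT list below it. The weakest 2 were CDX2, with 20.3% of the KO list and 32.4% of the WT list below it, and GATA2. These lists differ in length, and no change was read from the ranks.

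At most genes the KO and WT H3K4me3 peaks lay at the same places. Of the 29 KO peaks in the windows 0 were KO-only, where 7.3% of the whole KO list and 1.51% of its bivalent peaks were. Of the 34 WT peaks 3 (8.82%) were WT-only, where 12.3% (12 to 12.7) of the whole WT list and 4.64% of its bivalent peaks were. In wide H3K27me3 regions 9.94% of WT H3K4me3 peaks were WT-only, so the share at the members is near the background. The WT-only peaks lay at CDX2 and HAND1. At CDX2 a WT-only peak lay 557 to 2846 bases upstream of the TSS, with a score of 99.25. The other CDX2 peak lay 8156 to 9920 bases upstream and had a score of 155.41. No KO H3K4me3 peak lay upstream of CDX2 within the window beyond the one over the TSS, which reached 448 bases upstream. The HAND1 peak lay 3739 to 6500 bases upstream, with a score of 53.58 in a list whose lowest score was 50. All 3 were weak for the WT list, where shared peaks had a median score of 2941 and WT-only peaks 71.5. A further WT-only peak lay outside the window at TBX3, 15545 to 16840 bases upstream. At GATA3 the WT peak 4957 to 6654 bases downstream touched a KO peak by its edge alone, the KO peak ending at 4987.

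The bases covered by H3K4me3 within 10 kb differed most at CDX2, where KO had 4223 bases in 2 peaks and WT had 8846 bases in 4. The ratio of 0.48 was equalled or undercut by 3.98% of windows on H3K4me3 peaks in wide H3K27me3 regions. Those windows were centred on WT peaks, so WT coverage was assured and KO coverage was not, which favours low ratios. The member windows were centred on TSS, so the standings given here are not like for like. HAND1 had 7164 bases in 2 KO peaks and 10561 bases in 4 WT peaks, a ratio of 0.68 that 9.04% of those windows equalled or undercut. TFAP2A went the other way, with 12280 bases in 3 KO peaks and 9427 bases in 4 WT peaks. Its ratio of 1.30 was equalled or exceeded by 1.54% of those windows. The difference lay upstream of the TSS used here. TFAP2A has 2 RefSeq starts, which were not placed in hg19, so whether this stretch holds another start was not tested. In KO a peak ran 3949 to 8046 bases upstream, where WT had a peak at 6147 to 7816 bases. The KO peak over the TSS reached 3744 bases upstream and took in the site of a separate WT peak at 1887 to 3813 bases.

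The other genes differed less. GATA3 had 15875 bases in KO and 18227 in WT, GATA2 had 11560 in KO and 12645 in WT, and MSX2 had 7749 in KO and 8416 in WT. TBX3 had 6276 bases in KO and 6577 in WT, and ISL1 had 10641 in KO and 10761 in WT. BMP4 had 10440 bases in KO and 10353 in WT, and TFAP2C had 8611 in KO and 8527 in WT. KO had fewer covered bases at 7 of the 10 genes, and in 68.6% of windows in wide H3K27me3 regions. Summed over the 10 genes the KO to WT ratio was 0.91, against 0.93 in those windows, which overlap each other. Because those windows were centred on WT peaks, lower KO coverage is partly built into both of their values. Over the whole lists H3K4me3 covered 78.2 Mb in KO and 81.5 Mb in WT. Leaving out 1 gene at a time gave a summed ratio of 0.87 without TFAP2A, the lowest, and 0.95 without CDX2, the highest. Without both CDX2 and HAND1, which had the lowest ratios, the summed ratio was 0.98. Both were picked from these same values, and TFAP2A, which was higher in KO, was kept in that sum. The 0.98 thus does not place the difference at CDX2 and HAND1 alone. With only the upper 50% of each list by score the summed ratio over the 10 genes was 0.61.

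**Figure D3:**
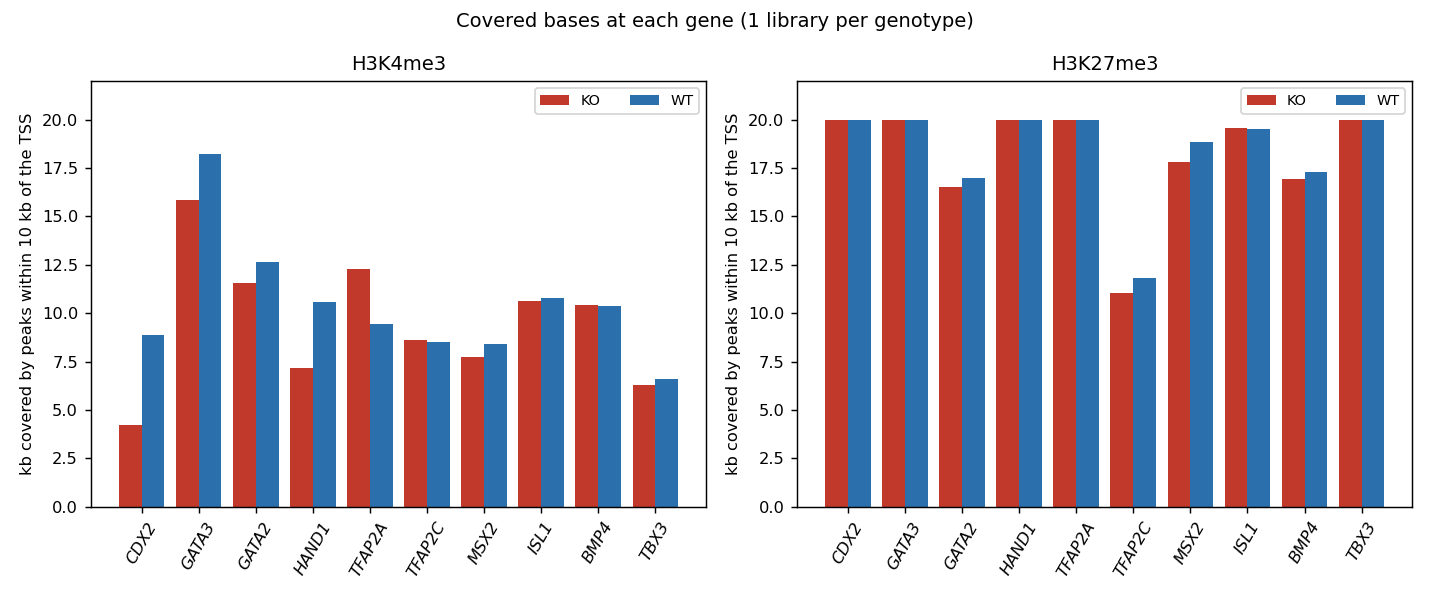
Bases covered by peaks within 10 kb of the TSS (y axis, kb), in KO (red, left bar) and WT (blue, right bar), for H3K4me3 and H3K27me3, 1 library per genotype. The H3K4me3 bars differ at CDX2 and HAND1, lower in KO, and at TFAP2A, higher in KO, while the H3K27me3 bars are nearly level.

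**Figure D4:**
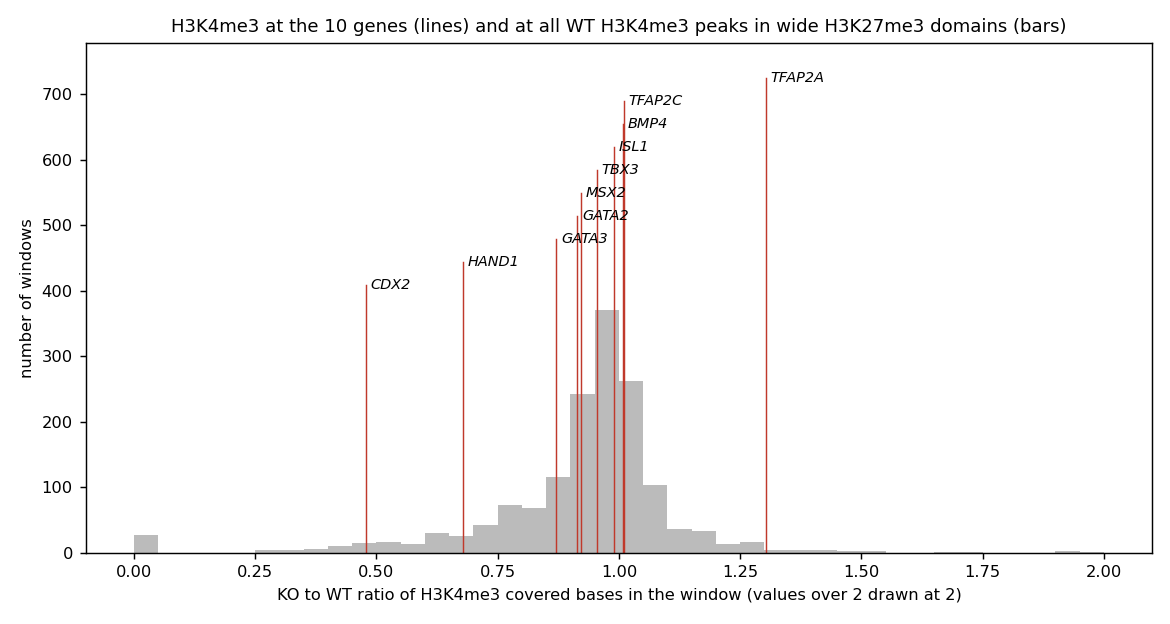
KO to WT ratio of H3K4me3 covered bases (x axis) at the 10 genes (red lines) and in 1559 windows centred on WT H3K4me3 peaks in H3K27me3 regions of at least 10 kb (grey bars, number of windows). CDX2 (0.48), HAND1 (0.68) and TFAP2A (1.30) lie toward the ends of the grey distribution.

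Some stretches were also divided into peaks differently in the 2 lists. At ISL1, a LIM homeobox factor of cardiac progenitors and amnion, a WT peak 3292 to 7604 bases downstream stood where KO had a pair of peaks, at 3449 to 5451 and 5641 to 7824 bases. At HAND1 the KO peak over the TSS ran from 2002 bases upstream to 3259 downstream, where WT had a pair of peaks with a narrow gap between them. The number of H3K4me3 peaks in the window was higher in WT at 4 genes, higher in KO at 1 and equal at 5. Shared bases made up 46.8% of all bases covered in either genotype at CDX2 and 66.5% at HAND1. At TFAP2C the share was 96.9%, the highest of the 10, and the median was 88.2%.

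FLAG peaks lay within 10 kb of all 10 genes and over the TSS of 9. Of windows on WT H3K4me3 peaks in wide H3K27me3 regions 91% held a FLAG peak, against 72.5% of windows on bivalent and 50.7% on all WT H3K4me3 peaks, so a FLAG peak near these genes is usual for such regions. By score the 21 FLAG peaks had a median of 131.37, set beside 145 for the 1231 FLAG peaks on wide WT H3K27me3 regions and 86.7 for the whole list. In the uppermost 10% of the FLAG list by score were 7 of the 21 (33.3%), where 25.3% of FLAG peaks on wide regions were. They were also wide, with a median of 3196 bp against 1985 bp for the list and 2831 bp on wide regions. All 21 lay on H3K27me3 in KO and in WT, where 25.2% of all FLAG peaks lay on KO and 28.1% on WT H3K27me3. None lay on H3K27ac, where 17.8% of all FLAG peaks lay on KO and 20.7% on WT H3K27ac. Both results were largely set by the windows and say little about FLAG itself. H3K27me3 covered 55.1% to 100% of each window in KO and 59.1% to 100% in WT, and no window held H3K27ac. On KO H3K4me3 lay 20 of the 21, against 48.9% of all FLAG peaks, and on WT H3K4me3 all 21, against 50%. The exception was the FLAG peak 7477 to 9790 bases upstream of CDX2, at the site of a WT-only H3K4me3 peak. Of the 29 KO H3K4me3 peaks in the windows 19 held a FLAG peak (65.5%), near the 62.6% of KO bivalent peaks and above the 40.5% of all KO peaks. Of the 34 WT peaks 23 did (67.6%), near the 67.9% in wide H3K27me3 regions and the 61.6% of WT bivalent peaks, with 39.3% for all WT peaks.

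GATA2 had the strongest FLAG peak of the 10 genes, a single region of 9013 bp from 1464 bases upstream to 7548 bases downstream of the TSS, with a score of 848.74 that ranked 126 of 22966. It overlapped both the H3K4me3 peak over the TSS and the broad one downstream. TFAP2A came next, with a FLAG peak of 8894 bp that ran from 7615 bases upstream to 1278 downstream and scored 539.80, rank 503. This peak lay over the upstream stretch in which KO and WT H3K4me3 peaks differed. A smaller FLAG peak lay 6912 to 8797 bases downstream of TFAP2A. At TBX3 a FLAG peak of 5159 bp over the TSS scored 414.62, and at TFAP2C one of 4155 bp scored 413.64. HAND1 had 330.43 and BMP4 306.68 over the TSS. Each of these 6 peaks had a higher score than 90% of the list.

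GATA3 had the most FLAG peaks, 5 in the window, which covered 14992 of the 20001 bases. The highest of them lay just upstream of the TSS, 1868 to 7045 bases away, with a score of 427.52, while the FLAG peak over the GATA3 TSS had 131.37. GATA3 has 6 RefSeq starts, and whether the highest peak covers another of them was not tested. CDX2 had 113.60 over the TSS. MSX2 had the weakest FLAG peak over a TSS, with a score of 66.63, lower than the list median of 86.7. ISL1 was the only gene without a FLAG peak over the TSS. Its FLAG peaks lay 3788 to 5341 and 5894 to 7835 bases downstream and scored 91.57 and 83.08. Both sat on the downstream H3K4me3 peaks that were divided in KO, and the H3K4me3 peak over the ISL1 TSS held none. Both CDX2 peaks that were WT-only for H3K4me3 touched a FLAG peak and the HAND1 peak did not, where 10.4% of all WT-only H3K4me3 peaks and 40.6% of those in wide H3K27me3 regions held one. With 3 peaks no share can be read.

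**Figure D5:**
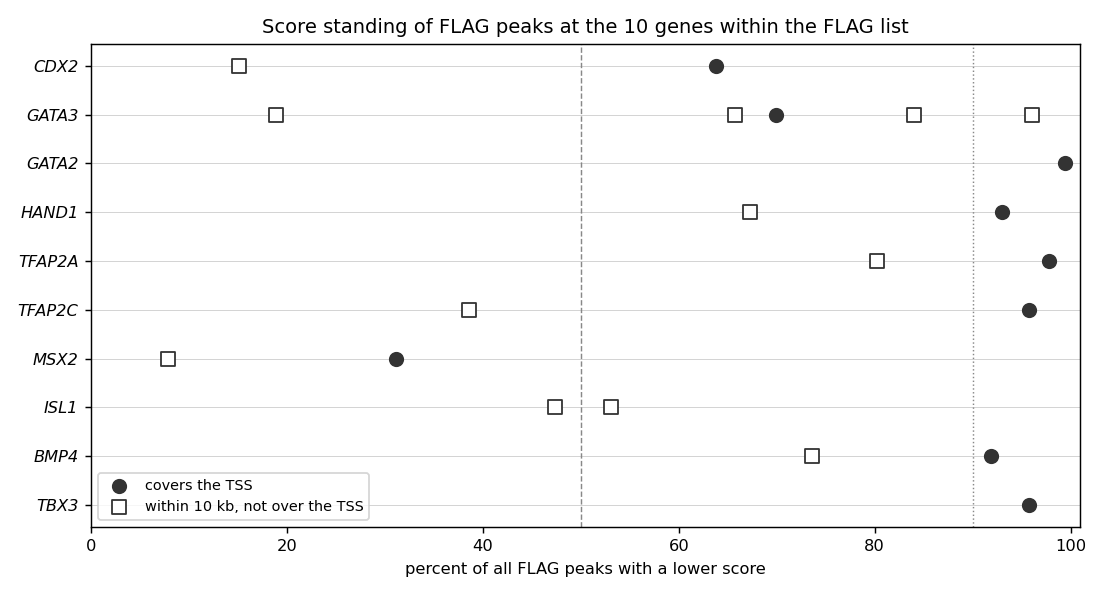
Standing of the 21 FLAG peaks within 10 kb of the 10 genes in the FLAG list (x axis, percent of all FLAG peaks with a lower score), with filled circles for peaks over the TSS and open squares for the others. The dashed line marks the list median and the dotted line the uppermost 10%. The TSS peaks of GATA2, TFAP2A, TBX3, TFAP2C, HAND1 and BMP4 lie right of the dotted line, while ISL1 has no filled circle.

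Promoter sequences are shown for GATA2, TFAP2A and HAND1, as genes with strong FLAG peaks over the TSS, and for CDX2 and ISL1 as genes with a weaker or no FLAG peak there. ISL1 was added after its values were seen. RefSeq promoters, each 300 bases in GRCh38.p14 from 250 before to 50 after a start, were found for 8 of the 10 genes, with 17 starts in all. TFAP2C and TBX3 had no entry. The table does not say which of several starts is the hg19 TSS used here, so both starts are printed for GATA2 and TFAP2A, numbered along the direction of transcription. BMP4 with 3 starts and GATA3 with 6 are summarised by their counts. Capitals mark matches to GGAGGA or its reverse complement TCCTCC, a core of the purine-rich sequence known for ZNF263, and the added base where the longer GGGAGGA or TCCTCCC matched. All lines read 5′ to 3′ on the gene's strand.
GATA2 start 1, chr3:128493152-128493451, minus strand: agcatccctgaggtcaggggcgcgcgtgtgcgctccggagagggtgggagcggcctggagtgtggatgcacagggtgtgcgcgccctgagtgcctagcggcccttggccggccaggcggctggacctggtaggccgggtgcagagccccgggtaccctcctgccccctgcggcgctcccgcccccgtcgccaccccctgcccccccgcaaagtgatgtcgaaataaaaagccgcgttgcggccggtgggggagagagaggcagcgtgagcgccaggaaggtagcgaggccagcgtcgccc
GATA2 start 2, chr3:128488481-128488780, minus strand: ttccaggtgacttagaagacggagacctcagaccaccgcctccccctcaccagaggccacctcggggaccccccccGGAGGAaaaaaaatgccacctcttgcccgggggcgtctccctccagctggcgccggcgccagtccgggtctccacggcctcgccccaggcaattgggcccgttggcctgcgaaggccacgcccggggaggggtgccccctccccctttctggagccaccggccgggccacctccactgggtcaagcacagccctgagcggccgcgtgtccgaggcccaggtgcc
TFAP2A start 1, chr6:10419610-10419909, minus strand: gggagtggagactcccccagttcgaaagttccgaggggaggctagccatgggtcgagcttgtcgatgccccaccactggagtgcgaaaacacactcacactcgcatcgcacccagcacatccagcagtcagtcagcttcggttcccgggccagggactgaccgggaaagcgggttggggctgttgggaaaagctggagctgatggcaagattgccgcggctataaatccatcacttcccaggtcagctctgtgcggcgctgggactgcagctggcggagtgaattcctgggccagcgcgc
TFAP2A start 2, chr6:10412342-10412641, minus strand: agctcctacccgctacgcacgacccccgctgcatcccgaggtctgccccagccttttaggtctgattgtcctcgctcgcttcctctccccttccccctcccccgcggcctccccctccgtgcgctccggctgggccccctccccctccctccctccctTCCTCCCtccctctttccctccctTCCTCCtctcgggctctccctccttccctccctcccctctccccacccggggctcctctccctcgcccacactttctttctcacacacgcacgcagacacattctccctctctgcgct
HAND1, chr5:154478178-154478477, minus strand: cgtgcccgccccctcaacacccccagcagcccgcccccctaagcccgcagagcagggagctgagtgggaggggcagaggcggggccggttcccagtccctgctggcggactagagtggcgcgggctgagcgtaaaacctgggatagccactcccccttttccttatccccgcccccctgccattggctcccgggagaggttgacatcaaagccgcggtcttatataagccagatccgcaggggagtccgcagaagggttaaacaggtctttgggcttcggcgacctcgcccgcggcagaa
CDX2, chr13:27969266-27969565, minus strand: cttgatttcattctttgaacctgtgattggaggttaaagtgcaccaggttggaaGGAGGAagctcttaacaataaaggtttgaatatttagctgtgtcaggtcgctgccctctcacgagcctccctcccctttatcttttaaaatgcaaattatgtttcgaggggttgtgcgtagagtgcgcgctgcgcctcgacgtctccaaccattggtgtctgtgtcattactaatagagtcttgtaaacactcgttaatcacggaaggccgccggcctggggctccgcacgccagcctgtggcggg
ISL1, chr5:51383198-51383497, plus strand: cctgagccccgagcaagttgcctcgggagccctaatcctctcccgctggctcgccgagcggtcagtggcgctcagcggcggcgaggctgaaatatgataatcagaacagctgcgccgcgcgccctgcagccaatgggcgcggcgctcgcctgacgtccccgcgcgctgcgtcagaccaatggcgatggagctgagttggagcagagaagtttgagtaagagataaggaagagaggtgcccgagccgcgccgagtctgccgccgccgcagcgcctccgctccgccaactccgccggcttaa

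The GGAGGA motif was found in 8 of the 17 member promoters (47.1%) and in 36.6% of all 35116 promoters of the table, both strands counted. The longer GGGAGGA, each match of which contains a GGAGGA, was found in 4 of the 17 (23.5%) and in 18.1% of all promoters. Neither motif was in the HAND1 promoter, in start 1 of GATA2 or in start 1 of TFAP2A, which lie at genes with strong FLAG peaks, nor in the ISL1 promoter. Start 2 of TFAP2A held 2 matches to TCCTCC, of which 1 was the longer TCCTCCC. CDX2, MSX2 and start 2 of GATA2 held 1 GGAGGA each. BMP4 held it at 2 of its 3 starts and GATA3 at 2 of its 6. These matches describe the letters in a 300-base window, and the FLAG peaks are many times wider. GC content was 50.3% in the CDX2 promoter, the lowest of the 17, against a median of 58.7% over the table. CG dinucleotides numbered 16 in CDX2 and 36 in ISL1, against a median of 14.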

How the data were processed

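Per the submitters' processing notes, reads were handled with Bowtie2 and Picard against hg19, of unstated version. MACS is the start of each peak's name in the deposited lists. Which input served which list, and whether libraries were pooled, is unknown. Each deposited list holds chromosome, start, end, name and score. The score is the authors' value, with no stated scale, and starts at 40 for H3K27ac and H3K27me3, and at 50 for H3K4me3 and FLAG. Read depth is unknown.

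Groups were taken from the sample titles. Starts were counted from 1. A peak was at a gene when it reached within 10 kb of the TSS, and peaks were shared when they overlapped by at least 1 bp. Bivalent means an overlap of H3K4me3 and H3K27me3 of the same genotype. All members and all their peaks are named or counted. Gene direction came from the RefSeq promoter table, and for TFAP2C and TBX3 from general knowledge. The members and lists were chosen with earlier results of these data known. Further regulators of these lineages could not be placed without an hg19 annotation and were not analysed here. Windows on all WT H3K4me3 peaks gave the background. Overlap and window counting, tested on simulated data, gave 0 wrong of 2000 peaks and 0 wrong of 300 windows. The software was python 3.11.15, pandas 2.3.3, numpy 2.4.6, matplotlib 3.10.9 and, for intervals, statsmodels 0.14.6. Other windows, overlaps, score limits and list lengths were tried as alternatives.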

Additional observations from a re-analysis of the deposited data

How the results depend on the processing

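The 25 results were recomputed under 129 alternatives, which left 115 values close to those reported, moved 14 and reversed none. Only the KO to WT ratios of covered bases could be called reversed. Counts could only stay close or move. Close meant within a fixed fold difference, a wide limit. With the upper 50% of each list by score, FLAG peaks fell from 21 to 15 and bivalent genes in WT from 10 to 7, and both counted as close. Many of the close values were counts of 0 that stayed at 0. Bivalency and the absence of H3K27ac were the same at all 10 genes with windows of 2, 5 and 20 kb and with lists of equal length. With the lists limited to their upper 50% by score there remained an H3K4me3 peak, and bivalency, at 4 genes in KO (7 in WT), with 5 KO and 10 WT H3K4me3 peaks. It gave 5 WT-only peaks, a KO to WT ratio of H3K4me3 covered bases of 0.61 and 3 genes with a mark in 1 genotype alone. This alternative removes by construction the many member peaks below the median score. Narrower windows lowered counts by construction. At 5 kb there were 18 KO and 22 WT H3K4me3 peaks. At 2 kb there were 11 KO and 13 WT H3K4me3 peaks, 1 WT-only peak and 11 FLAG peaks. The shorter motif GGAGGA gave 8 promoters against 4 for GGGAGGA. No paired analysis was possible because each arm held 1 library and no test was made. Leaving out a replicate was not possible for the same reason. Without read counts, a weak peak in 1 list and none in the other cannot be told from a difference in depth.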

Other observations

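Between 10 and 20 kb from the 10 TSS lay 25 further peaks, 10 KO and 12 WT H3K4me3 peaks and 3 FLAG peaks. At CDX2 a shared H3K4me3 peak lay 14159 to 16597 bases downstream in KO and 14222 to 16577 in WT, with scores of 1142.44 in the KO list and 946 in the WT list. It was the highest-scoring H3K4me3 peak of CDX2 within 20 kb in both lists, above the peak over the TSS, and it held a FLAG peak with a score of 210.09. At ISL1 a shared H3K4me3 peak lay 15098 to 17238 bases downstream in KO and 15085 to 17312 in WT, and it held no FLAG peak.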
